A study of Mus musculus with 12 samples.

Results

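The 10 genes that mark the pigment cell lineage, out of 22180 genes measured, were followed in cultured mouse keratinocytes. They were Mlana, Tyr, Tyrp1, Dct, Pmel, Mitf, Sox10, Kit, Slc45a2 and Mc1r, taken by name, and each was read from 1 probe set, the only one annotated to it alone. The 4 groups of 3 arrays each were: wt paraquat, wt sham, KO paraquat and KO sham. All cells carried floxed Atg7 alleles (Atg7 f/f). KO cells also carried K14::Cre, a recombinase under the keratin 14 promoter, which acts in keratinocytes and removes Atg7, an enzyme needed for autophagy, whereas wt cells lacked the Cre. Cells grew in KGM-2 medium and received 20 µM paraquat, a redox-cycling herbicide, or a sham treatment at partial confluence, and RNA was taken 48 h later in both. The cultures are labelled as biological triplicates with no animal named for any array, and p-values therefore reflect the spread among these arrays, which may be partly technical.

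Melanocytes arise from the neural crest and pass pigment to keratinocytes. MITF, a transcription factor, drives many melanocyte genes, SOX10 acts upstream of it, and the receptor KIT and the melanocortin receptor MC1R feed into it. Pigment is made in melanosomes by the enzymes tyrosinase (TYR), TYRP1 and DCT on fibrils of PMEL, with MLANA needed for PMEL maturation and the transporter SLC45A2 for the melanosome's interior. Several of these genes are not exclusive to melanocytes: Mitf has start sites used in many cell types, Kit marks mast cells and Sox10 marks Schwann cells. If the share of melanocytes changed in a culture, genes restricted to them would be expected to move together, whereas a change in 1 gene would not carry the others. In whole-culture RNA, more cells of a type and more RNA per cell cannot be told apart.

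The 3 pigment enzymes show the element by which MITF is known to act. Sequences from 250 bases before to 50 bases after the start site (RefSeq, build GRCm38.p6) were matched for 6 of the 10 genes, in 9 windows. No window was available for Mlana, Pmel, Sox10 or Slc45a2, so these genes were not searched. The letters CATGTG, read on both strands, stood in the windows of 4 genes (Tyr, Tyrp1, Dct and Mc1r), against 15.9% of 27025 genes with such a window. CATGTG was searched as the element known for MITF, so this count describes the windows and does not test them. GTCATGTGCT, the longest run around CATGTG that the windows of Tyr, Tyrp1 and Dct share, stood in these 3 by that choice, against 0.155% of all genes. CACGTG stood in 0 of the 6, against 8.09% of all genes. The windows of the 3 enzymes are shown because their genes share these letters. Whether the 3 genes differed from one another in their response to paraquat was not tested. They lie at chr7:87493463-87493762 (minus strand), chr4:80833963-80834262 (plus strand) and chr14:118052197-118052496 (minus strand), and capitals mark CATGTG or its reverse complement.
Tyr: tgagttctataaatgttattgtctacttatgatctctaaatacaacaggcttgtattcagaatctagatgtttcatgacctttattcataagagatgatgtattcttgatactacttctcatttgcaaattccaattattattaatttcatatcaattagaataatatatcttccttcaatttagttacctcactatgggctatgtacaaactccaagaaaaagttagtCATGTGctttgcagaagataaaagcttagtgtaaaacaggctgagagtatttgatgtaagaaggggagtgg
Tyrp1: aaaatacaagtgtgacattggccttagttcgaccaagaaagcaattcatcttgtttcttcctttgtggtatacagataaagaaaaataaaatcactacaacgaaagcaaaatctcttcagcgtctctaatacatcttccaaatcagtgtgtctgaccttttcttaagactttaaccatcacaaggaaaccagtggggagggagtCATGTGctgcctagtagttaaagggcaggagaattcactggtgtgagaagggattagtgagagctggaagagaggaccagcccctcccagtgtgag
Dct: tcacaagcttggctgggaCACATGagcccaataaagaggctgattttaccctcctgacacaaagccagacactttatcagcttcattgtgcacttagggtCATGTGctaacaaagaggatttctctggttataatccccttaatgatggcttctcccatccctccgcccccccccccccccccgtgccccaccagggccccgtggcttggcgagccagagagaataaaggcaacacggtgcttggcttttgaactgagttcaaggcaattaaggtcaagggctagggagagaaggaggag
The first capital stood 21 bases before the start site in Tyr and 46 in Tyrp1, and in Dct the pair stood 232 and 150 bases before it. None of the 3 Mitf windows or the 2 Kit windows held CATGTG. A match describes these letters and does not show that a factor binds there.

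Deposited values were signals from RMA on a linear scale, and the median over all probe sets of an array was 42 to 45. The files give no background or detection call, so a signal under that median was not shown to be above background. Atg7 bore out the genotype labels, with 96 to 148 in the 6 KO arrays and 286 to 457 in the 6 wt arrays. The cultures matched their label for keratin 14, a basal keratinocyte keratin, whose gene Krt14 read 8933 to 11102. Krt15, another keratinocyte keratin gene, read 21 to 41 and so lay under the array median of 42 to 45. On principal components, wt sham 2 stood at 31.4 on the second, while the other wt sham arrays stood at 11.4 and 20.4. KO paraquat 3 stood at 19.7 on the third against 5.52 and 6.34 in the other KO paraquat arrays. Results are given with these arrays, and values without them follow where a call depends on them.

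Whether paraquat shifted melanocyte genes as a set was asked first. Mlana rose 5.94-fold in wt and 5.14-fold in KO, while Dct and Mitf rose 1.29-fold to 1.63-fold in both genotypes, Pmel passed the test only in wt and Tyrp1 only in KO. Tyr, Sox10, Kit, Slc45a2 and Mc1r did not pass in either. In wt 4 of 10 genes passed as higher and 0 as lower, where 14.9% of all genes passed as higher and 14.3% as lower. In KO 4 of 10 passed as higher and 0 as lower, where 14.5% and 12.6% of all genes did. The test was limma's moderated test on log2 signals, 2-sided, with Benjamini-Hochberg adjustment over all genes and a threshold of 0.05. The median log2 change over the 10 genes was 0.38 in wt and 0.24 in KO, beside 0.01 over all genes in each. Counted by arrays, 4 of 10 genes did not overlap and were higher under paraquat in wt, against 19.2% of all genes, and 4 of 10 in KO, against 20%. In 3 genes (Mlana, Dct and Mitf) all 6 paraquat arrays lay above all 6 sham arrays, against 10.9% of all genes. The 10 genes were chosen with earlier results of these data known, so these counts describe the set and do not test it.

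Mlana, on chromosome 19 (29697541 to 29708447, GRCm38.p6), encodes a small membrane protein of early melanosomes. Its signal was 368, 371 and 398 in wt paraquat against 67, 73 and 53 in wt sham. In KO it was 341, 340 and 392 under paraquat against 77, 70 and 62 in sham. The paraquat and sham arrays were far apart, and the spread within a group was small beside the gap. The rise was 5.94-fold in wt (log2 2.57 ± 0.12 with its SE, limma adjusted p = 8.23e-09, with 3 arrays in each group), and its 95% interval was 4.96 to 7.11. In KO it was 5.14-fold (log2 2.36 ± 0.12, adjusted p = 4.78e-08), with an interval of 4.30 to 6.16. Among all 22180 genes the wt rise ranked 92 and the KO rise 64. Over all alternatives its log2 change stayed between 2.31 and 2.67 in wt and between 2.13 and 2.44 in KO, and it passed in each.

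**Figure D1:**
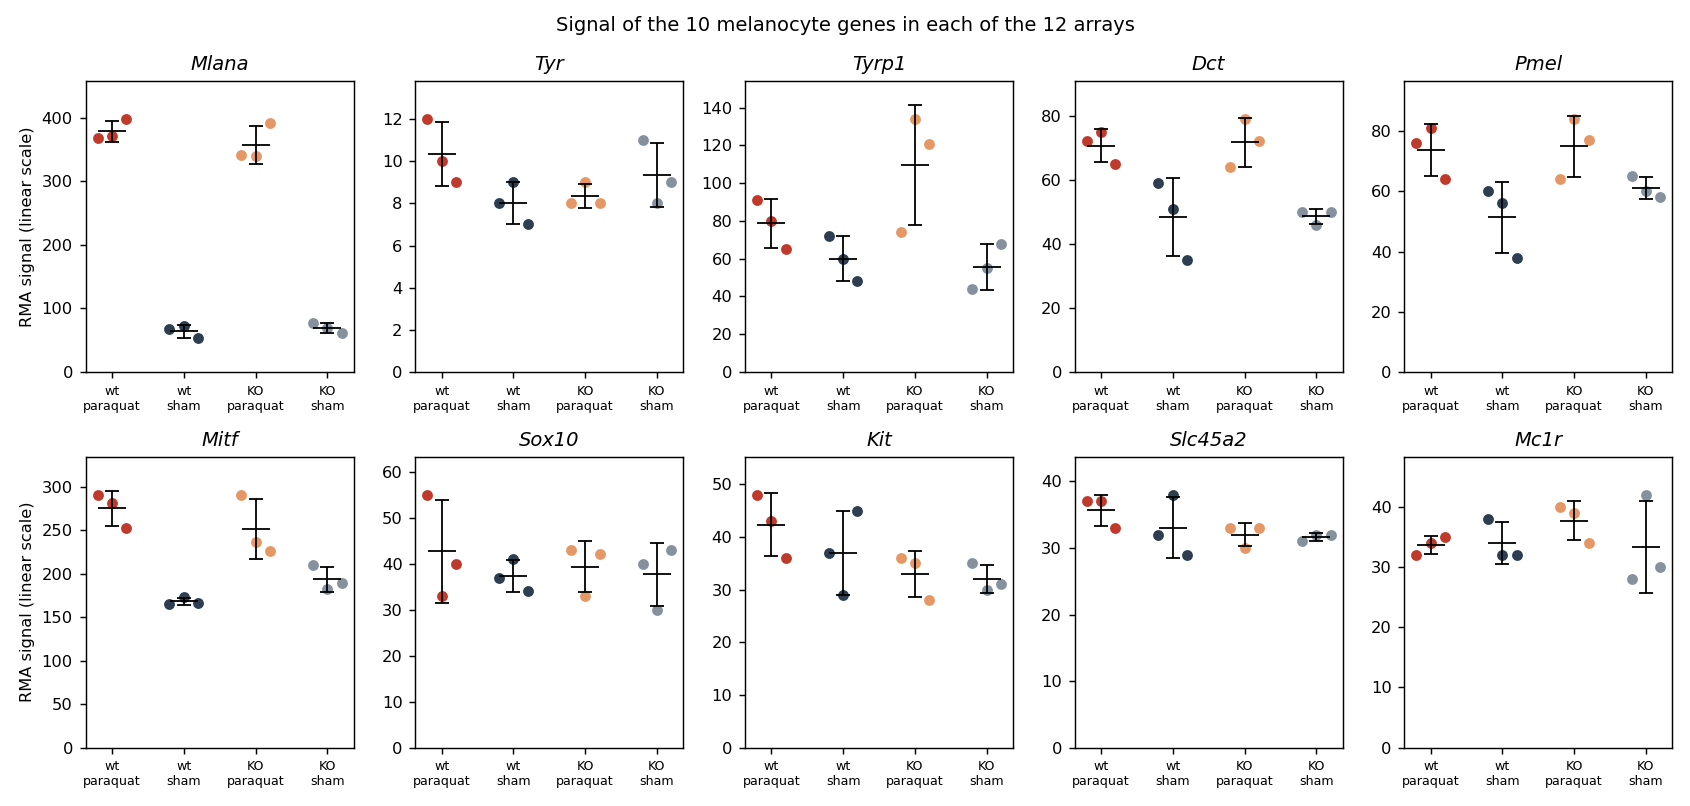
RMA signal (linear scale, from 0) of each melanocyte gene in each array, with 1 panel per gene and its own axis. Points are arrays 1 to 3 from left to right, and bars give the mean and SD of 3. Mlana reads 340 to 398 in the 6 paraquat arrays and 53 to 77 in the 6 sham arrays, while Sox10, Kit, Slc45a2 and Mc1r overlap between treatments.

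The other structural gene of the melanosome, Pmel on chromosome 10, encodes the fibril on which pigment is laid down. Pmel read 76, 81 and 64 in wt paraquat against 60, 56 and 38 in wt sham. In KO it read 64, 84 and 77 under paraquat against 65, 60 and 58 in sham. Paraquat and sham did not overlap in wt but overlapped in KO. It rose 1.46-fold in wt (log2 0.54 ± 0.16, adjusted p = 0.0193 in limma), and in KO the change of log2 0.29 ± 0.16 did not pass (adjusted p = 0.216). The wt call was lost without wt sham 3 (log2 0.34, adjusted p = 0.0817), wt paraquat 1 (0.0606) or wt paraquat 2 (0.0789), and in a fit of the 6 wt arrays alone (0.0734).

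Of the 3 enzymes, Dct (dopachrome tautomerase, chromosome 14) was the one that rose in both genotypes. Dct read 72, 75 and 65 in wt paraquat against 59, 51 and 35 in wt sham. In KO it read 64, 79 and 72 under paraquat against 50, 46 and 50 in sham. No sham array reached a paraquat array, and the lowest value, 35, was in wt sham 3. The rise was 1.49-fold in wt (log2 0.58 ± 0.15, adjusted p = 0.0112) and 1.47-fold in KO (log2 0.55 ± 0.15, adjusted p = 0.0159). In wt the log2 change was 0.36 without wt sham 3, still past the threshold, and the call was lost in the 6 wt arrays alone (adjusted p = 0.0620). In KO it was lost without KO sham 2 (0.0593), without KO paraquat 2 (0.0689) or without wt sham 2 and KO paraquat 3 together (0.0557).

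Tyrp1, on chromosome 4, encodes an enzyme of the eumelanin pathway. It read 91, 80 and 65 in wt paraquat against 72, 60 and 48 in wt sham. In KO it read 74, 134 and 121 under paraquat against 44, 55 and 68 in sham. The wt groups overlapped, and in KO the groups did not, with paraquat 1 well under the other KO paraquat arrays. Tyrp1 rose 1.94-fold in KO (log2 0.96 ± 0.23, adjusted p = 0.00588), with an interval of 1.38 to 2.72. In wt the change was log2 0.40 ± 0.23 and did not pass (adjusted p = 0.234). Tyr, on chromosome 7, encodes the enzyme that starts pigment synthesis and is the most defining of the 3. Its signal was 12, 10 and 9 in wt paraquat against 8, 9 and 7 in wt sham, and 8, 9 and 8 in KO paraquat against 11, 8 and 9 in KO sham. All 12 values lay well under the array median, and groups overlapped. The change was log2 0.37 ± 0.14 in wt (adjusted p = 0.0618) and -0.15 ± 0.14 in KO (adjusted p = 0.480). The wt value passed without wt sham 2 (adjusted p = 0.0370), KO sham 1 (0.0414) or wt paraquat 3 (0.0372), without wt sham 2 and KO paraquat 3 together (0.0496), and with array weights (0.0365). Signals are deposited as whole numbers, so 1 unit is a large step at this level.

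Mitf, the lineage transcription factor on chromosome 6, read 291, 282 and 253 in wt paraquat against 165, 173 and 167 in wt sham. In KO it read 291, 237 and 226 under paraquat against 210, 182 and 189 in sham. Groups did not overlap in either genotype, and the gap was narrow in KO. The rise was 1.63-fold in wt (log2 0.71 ± 0.10, adjusted p = 1.28e-04) and 1.29-fold in KO (log2 0.37 ± 0.10, adjusted p = 0.0157). The KO call was lost without KO sham 2 (adjusted p = 0.0631), without KO paraquat 1 (0.0761) and in the 6 KO arrays alone (0.0562). With 1 value for the gene, transcripts from the melanocyte start site were not measured apart from others.

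Sox10, on chromosome 15, lies upstream of Mitf in the lineage. It read 55, 33 and 40 in wt paraquat against 37, 41 and 34 in wt sham, and 43, 33 and 42 in KO paraquat against 40, 30 and 43 in KO sham. Treatments overlapped in both genotypes, and 1 of 12 arrays (wt paraquat 1) lay above the highest array median. Its changes were log2 0.16 ± 0.18 (adjusted p = 0.580) in wt and 0.07 ± 0.18 (adjusted p = 0.836) in KO. The interval of the fold change ran from 0.855 to 1.47 in wt and from 0.800 to 1.38 in KO.

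Kit, the receptor of stem cell factor on chromosome 5, read 48, 43 and 36 in wt paraquat against 37, 29 and 45 in wt sham. In KO it read 36, 35 and 28 under paraquat against 35, 30 and 31 in sham. Its groups overlapped, with changes of log2 0.21 ± 0.16 in wt (adjusted p = 0.392) and 0.04 ± 0.16 in KO (adjusted p = 0.901). Slc45a2, a melanosome transporter on chromosome 15, ranged from 33 to 37 in wt paraquat and 29 to 38 in wt sham. It ranged from 30 to 33 in KO paraquat and 31 to 32 in KO sham. Its changes of log2 0.12 ± 0.10 in wt (adjusted p = 0.444) and 0.01 ± 0.10 in KO (adjusted p = 0.955) were the most tightly bounded of the 10, between 0.936-fold and 1.26-fold in wt and between 0.870-fold and 1.17-fold in KO. Mc1r, the receptor of melanocyte-stimulating hormone on chromosome 8, ranged from 32 to 35 in wt paraquat and 32 to 38 in wt sham. It ranged from 34 to 40 in KO paraquat and 28 to 42 in KO sham. The changes were log2 -0.01 ± 0.14 in wt (adjusted p = 0.984) and 0.20 ± 0.14 in KO (adjusted p = 0.344), and the KO value passed without KO sham 2, at log2 0.37 (adjusted p = 0.0243). Slc45a2, Mc1r and Tyr lay under 45 in all 12 arrays, so a change in these genes may not have been detectable.

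**Figure D2:**
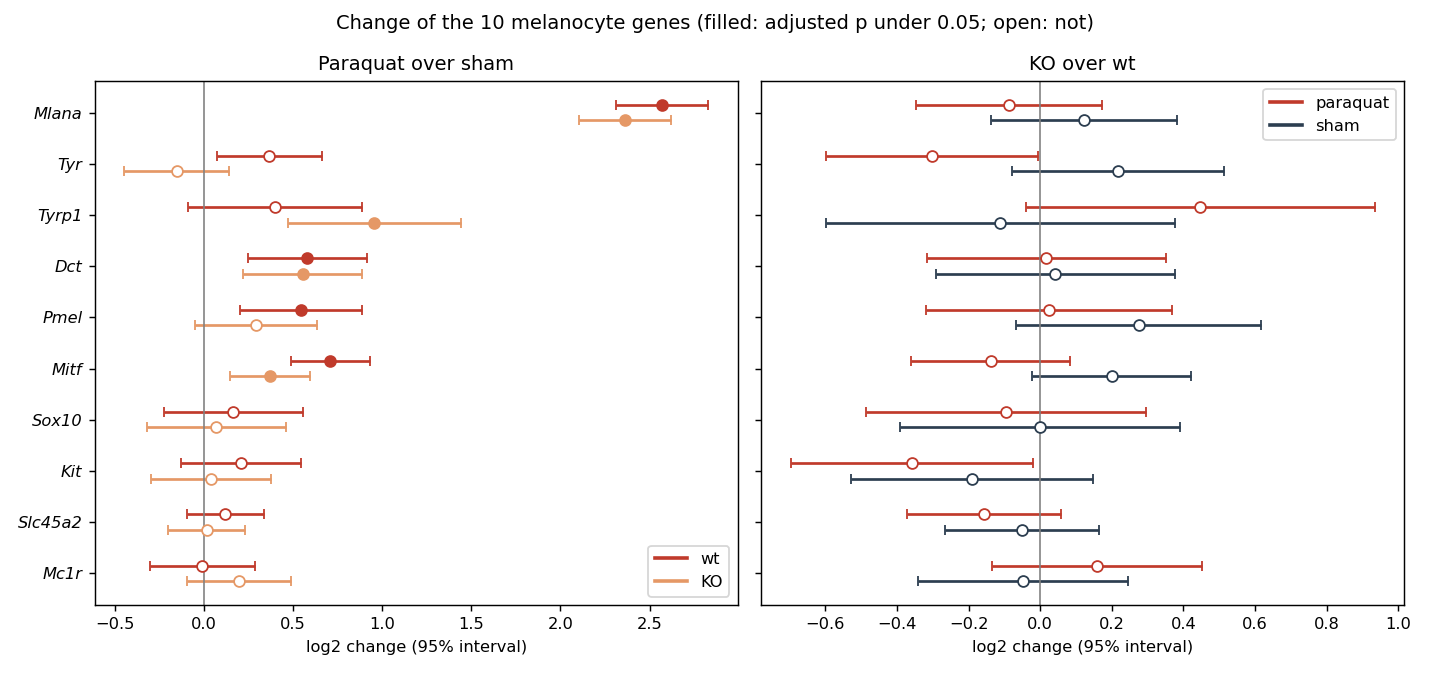
Log2 change with its 95% interval from limma (n = 3 arrays per group) for the 10 melanocyte genes. The left panel gives paraquat over sham in wt and KO and the right panel KO over wt under paraquat and in sham; filled points passed at an adjusted p under 0.05. Mlana stands at 2.57 and 2.36 on the left, and 0 genes passed on the right.

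The change in Mlana was also set against that in the 4 other genes read above 45 in at least 11 of the 12 arrays, by subtracting the log2 signal of each from that of Mlana in the same array. Averaged over both genotypes, Mlana changed by log2 1.79 more than Tyrp1, 1.90 more than Dct, 1.93 more than Mitf and 2.05 more than Pmel. In each of the 4, the difference in all 6 paraquat arrays lay above that in all 6 sham arrays. In sham, Tyrp1 read 44 to 72, Dct 35 to 59, Pmel 38 to 65 and Mlana 53 to 77. These lie near the array median of 42 to 45, where background may shrink a log2 change. The size of these differences is therefore uncertain. Mlana was chosen here because its rise had been seen, so these values are a description with no test. For the dimmer Tyr, Sox10, Kit, Slc45a2 and Mc1r such a difference would return little but the rise of Mlana itself, and none is given.

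Summed over the 10 genes, the signal was 998 to 1082 in wt paraquat against 488 to 575 in wt sham, and 994 to 1033 in KO paraquat against 555 to 591 in KO sham. Without Mlana the sum over 9 genes was 600 to 714 in wt paraquat against 435 to 508 in wt sham. In KO it was 641 to 680 under paraquat against 485 to 514 in sham. The mean log2 signal of these 9 was 5.68 ± 0.134 (SD, n = 3) in wt paraquat against 5.33 ± 0.140 in wt sham, and 5.63 ± 0.0491 in KO paraquat against 5.37 ± 0.0411 in KO sham. In both genotypes the paraquat sums of these 9 lay above the sham sums, which carries no test.

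Array by array, several genes shared their lowest array in the wt cultures. Array 3 was the lowest of its group for 7 of the 10 genes in wt paraquat and for 7 of 10 in wt sham, and Tyr, Tyrp1, Dct, Pmel and Slc45a2 were lowest there in both. Mlana was lowest in wt sham 3, at 53, yet highest of the wt paraquat arrays in wt paraquat 3, at 398. In KO paraquat the lowest array was split evenly, with 3 genes lowest in each of the 3 arrays and Tyr tied. In KO sham, array 2 was lowest for 5 of the 10. Replicate numbers were not taken to mark pairs of cultures, and these counts carry no test. The share of all genes that were lowest in array 3 was not counted. Whether the shared lowest array is particular to melanocyte genes was therefore not tested. Tyr and Slc45a2 also lay under the array median of 42 to 45 in every array.

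**Figure D3:**
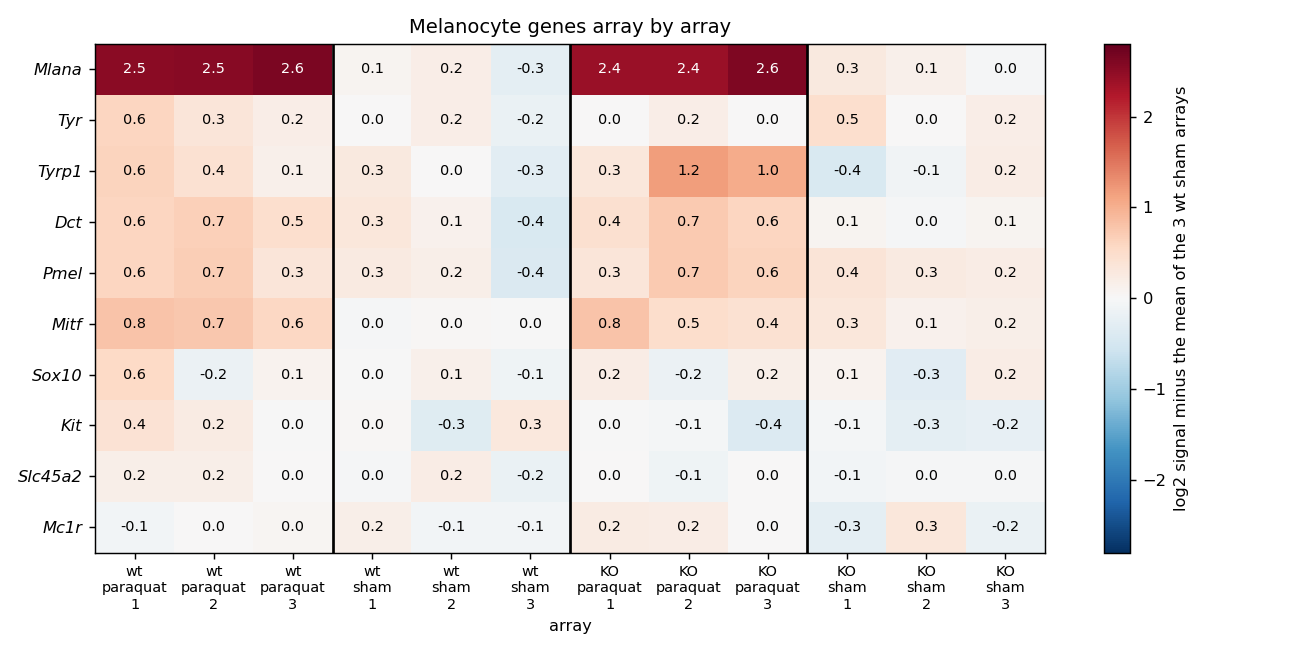
Log2 signal of each melanocyte gene (down) in each array (across) minus that gene's mean over the 3 wt sham arrays. In all 6 paraquat arrays the Mlana row holds the highest value, whereas Dct, Pmel and Mitf hold smaller positive ones.

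Genotype was the second question. Under the test, 0 of 10 genes differed between KO sham and wt sham, where 10.2% of all genes passed, and 0 of 10 had an unadjusted p under 0.05 in limma, where 22.5% of all genes did. Mitf was the 1 gene whose arrays did not overlap, at 182 to 210 in KO sham and 165 to 173 in wt sham (log2 0.20 ± 0.10, adjusted p = 0.277), where 10.1% of all genes did not overlap and were higher in KO. Between KO paraquat and wt paraquat 0 of 10 passed, where 0.55% of all genes did, and 2 (Tyr and Kit) had an unadjusted p under 0.05 in limma, where 11% of all genes did. Kit was at 33.0 ± 4.36 (SD, n = 3) in KO paraquat and 42.3 ± 6.03 in wt paraquat (log2 -0.36 ± 0.16, adjusted p = 0.422). Mlana differed by log2 0.12 ± 0.12 in sham (adjusted p = 0.620) and by -0.09 ± 0.12 under paraquat (adjusted p = 0.859), with intervals of -0.14 to 0.38 and of -0.35 to 0.17.

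The difference between the KO response and the wt response was tested directly, and 0 of 10 genes passed, where 2.29% of all genes did. In 2 of 10 (Tyr and Mitf) the unadjusted p in limma was under 0.05, where 15.2% of all genes had one. For Mitf the KO response was lower by log2 -0.34 ± 0.15 (adjusted p = 0.284), for Tyr by -0.52 ± 0.19 (adjusted p = 0.201) and for Mlana by -0.21 ± 0.17 (adjusted p = 0.627). Tyrp1 went the other way, at 0.56 ± 0.32 (adjusted p = 0.449), with an interval of -0.13 to 1.25. That Tyrp1 passed only in KO and Pmel only in wt therefore does not show a difference between the genotypes, and neither do these p-values show that the responses were alike.

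Nearest patterns were sought by the root mean square difference of log2 signals over the 12 arrays, each gene centred on its own mean. Genes with clone-like names or names of the Gm, Rik, Mir, Snor, Olfr, Vmn or LOC kind were left out. For Dct the nearest of all named genes was Pmel, and for Pmel it was Dct, at 0.126 log2 units. Mlana was nearest to Nkx2-9 (0.128), a homeobox gene, then Cgref1 (0.162) and Ankrd22 (0.180). Nkx2-9 averaged 859 ± 73.9 in wt paraquat against 137 ± 6.66 in wt sham (SD, n = 3) and 881 ± 78.4 in KO paraquat against 177 ± 19.0 in KO sham. For Mitf the 3 nearest were Epb41l5 (0.0798), Klhl11 (0.0827) and Bod1 (0.0840). For Tyrp1 they were the keratin gene Krt90 (0.234), Ssmem1 (0.257) and Tfec (0.258), a relative of Mitf, which was dim at 18.3 ± 4.51 in KO paraquat against 13.3 ± 1.53 in KO sham. Further genes near Dct were Tgfb2 and Uqcrfs1, and near Pmel they were Ero1b and Nmrk1. None of the 3 genes nearest to Mlana was among the other 9. The distance counts the size of a change, and Mlana rose far more than these 9. That outcome was therefore fixed in advance and does not show whether their patterns had the same shape.

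The 4 measured genes beside Mlana on chromosome 19 were looked at after its values were seen, and in wt 3 of them fell and 1 rose. Of all genes, 14.9% rose and 14.3% fell in wt, and 14.5% rose and 12.6% fell in KO. Ermp1, next to it on the side of lower coordinates, averaged 341 ± 10.7 in wt paraquat against 901 ± 18.7 in wt sham (log2 -1.40, adjusted p = 2.63e-08), and it also fell in KO (log2 -0.60, adjusted p = 5.65e-05). On the other side, 9930021J03Rik fell in wt (log2 -0.27, adjusted p = 0.0188) and changed by -0.19 in KO (adjusted p = 0.0933). Ranbp6, the next, rose slightly (log2 0.38 in wt, adjusted p = 0.0183, and 0.34 in KO, adjusted p = 0.0346), and Ric1, on the far side of Ermp1, fell by 0.36 in wt and by 0.39 in KO on the log2 scale.

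Other genes of the pigment cell were compared from lists. Of 13 further pigment cell genes, 0 rose and 2 fell in wt and 1 rose and 1 fell in KO, with median log2 changes of 0.02 and 0.05. Of all genes, 14.9% rose and 14.3% fell in wt, and 14.5% rose and 12.6% fell in KO. Oca2, Gpr143 and Trpm1, all largely restricted to pigment cells, stayed between 19 and 26 in every array, and Pax3, a melanoblast factor, between 34 and 58. Tspan10 (23 to 28), Bcan (17 to 26) and Sorcs1 (16 to 21) also lay under the array median of 42 to 45. A change in such dim genes may not have been detectable, so the list medians do not show that pigment cell genes stayed level. Rab38, which sends enzymes to melanosomes, fell to 530 ± 9.29 in wt paraquat against 1005 ± 89.5 in wt sham (log2 -0.92 ± 0.10, adjusted p = 1.4e-05) and fell in KO (-0.58 ± 0.10, adjusted p = 8.72e-04). Gpnmb, a melanosome and lysosome glycoprotein gene, fell in wt (-0.59 ± 0.14, adjusted p = 0.00517). Between genotypes Gpnmb was lower in KO, at 358 ± 9.64 in KO sham against 822 ± 59.1 in wt sham (log2 -1.20 ± 0.14, adjusted p = 2.15e-04). Gpr137b, a lysosomal membrane gene, rose in KO (0.73, adjusted p = 0.00424), and Slc24a4 changed by 0.30 in wt (adjusted p = 0.0536). In sham, Gpr137b was lower in KO, at 207 ± 30.7 against 329 ± 46.1 in wt (log2 -0.67, limma adjusted p = 0.0202). Under paraquat it averaged 348 ± 79.8 in KO and 341 ± 4.04 in wt.

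Of 18 melanosome trafficking genes, most of them also used by lysosomes in other cells, 5 rose and 3 fell in wt and 6 rose and 3 fell in KO. The shares over all genes were 14.9% higher and 14.3% lower in wt, and 14.5% and 12.6% in KO. Vps33a rose by log2 0.75 and 0.73 in wt and KO, Bloc1s6 by 0.66 and 0.60 and Mlph, which links melanosomes to the motor protein myosin Va, by 0.45 and 0.66, whereas Hps3 fell by 0.96 and 0.64 on the log2 scale. Of 11 neural crest regulators 0 rose and 2 fell in wt, and 0 rose and 3 fell in KO. Tfap2b fell in both (log2 -1.03 and -1.02) and Snai2 in both (-0.51 and -0.24), while Met fell in KO (-0.43), and Sox9 was lower in KO sham than in wt sham (-0.58, adjusted p = 5.9e-04).

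A further list held signals from keratinocytes to melanocytes, with Foxn1, a keratinocyte transcription factor, among them. Of its 15 measured genes of 18 listed, 3 rose in wt and 4 in KO, and 0 fell in either. Among all genes 14.9% rose and 14.3% fell in wt, and 14.5% rose and 12.6% fell in KO. Kitl, the ligand of KIT, rose in KO, at 349 ± 48.6 in KO paraquat against 169 ± 38.1 in KO sham (log2 1.06 ± 0.18, adjusted p = 6.68e-04), and changed by 0.38 ± 0.18 in wt (adjusted p = 0.156). Il1a rose by log2 1.53 in wt and 1.44 in KO, Nrg1 by 0.55 and 0.27, and Csf2 by 0.91 in wt, with 0.55 in KO (adjusted p = 0.0626).

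Markers of other cells were counted in the same way. Over all genes, 14.9% passed as higher and 14.3% as lower in wt, and 14.5% and 12.6% in KO. Counts of 1 or 2 of 10 lie near these shares. Of 10 Schwann cell genes 1 rose (Mbp, log2 1.06 in wt and 0.70 in KO) and 2 fell in each genotype, with L1cam in both (-1.24 and -1.09), Egr2 in wt and Pmp22 in KO. The list's summed signal was 1653 to 1837 in wt paraquat against 1767 to 1944 in wt sham and 1573 to 1741 in KO paraquat against 1779 to 1945 in KO sham. The lineage markers S100b and Cdh19 lay between 8 and 20 in every array. Of 10 mast cell genes 1 rose in each genotype, Cma1 (log2 0.76 and 0.72), at 34.3 in wt paraquat against 20.3 in wt sham, while Cpa3, Mcpt4 and Ms4a2 lay between 5 and 16. Their summed signal was 166 to 176 in wt paraquat against 155 to 161 in wt sham and 173 to 180 in KO paraquat against 158 to 165 in KO sham. Of 10 leukocyte genes 4 rose and 1 fell in wt and 2 rose and 1 fell in KO, led by Cd68, a lysosomal protein gene (1.64 and 1.05), and the pan-leukocyte gene Ptprc lay between 13 and 21. Itgam rose in both (log2 0.41 and 0.38) and Csf1r in wt (0.35), while Lyz2 fell in KO (-0.42). Their signals were dim, at 24 to 43, 32 to 46 and 12 to 18. The list's summed signal was 2081 to 2160 in wt paraquat against 830 to 893 in wt sham and 1479 to 1754 in KO paraquat against 848 to 943 in KO sham. Cd68 alone averaged 1825 in wt paraquat against 587 in wt sham. Of 10 fibroblast genes 1 rose, Pdgfra (log2 1.50 and 0.91), and 2 fell in each genotype, with Dcn and Lum between 8 and 33. Summed, this list read 688 to 773 in wt paraquat against 793 to 960 in wt sham and 717 to 733 in KO paraquat against 994 to 1105 in KO sham. Of 8 Merkel cell genes 0 rose, with 1 fall in wt (Krt8, -0.46) and 0 falls in KO, and sums of 414 to 463 in wt paraquat against 465 to 475 in wt sham and 412 to 426 in KO paraquat against 413 to 541 in KO sham. No marker was listed at 0. Of 13 keratinocyte genes 0 rose and 6 fell in wt and 5 fell in KO, such as Krt1 (-1.40 and -1.62), Itgb4 (-1.20 and -0.67), Cdh1 (-0.64 and -0.56) and Krt14 (-0.28 and -0.22). The part of these shifts in the melanocyte genes' changes was not tested.

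**Figure D4:**
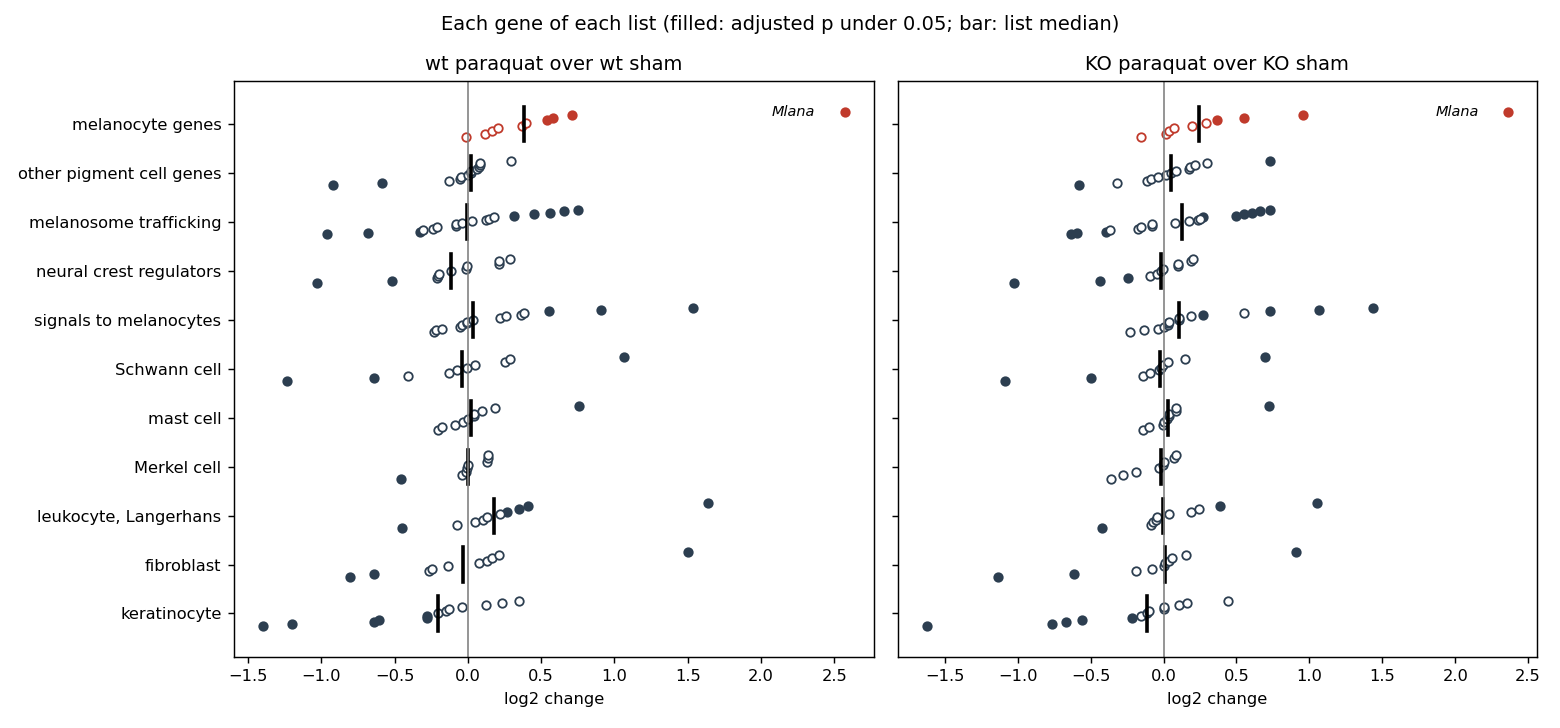
Log2 change of every measured gene of each list, in wt (left) and KO (right), paraquat over sham. Filled points passed at an adjusted p under 0.05 and vertical bars are list medians. Mlana at 2.57 and 2.36 lies above every other gene drawn, and the medians of the other lists lie between -0.20 and 0.18 in wt.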

How the data were processed

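RNA of 12 cultures was put on Affymetrix arrays after whole-transcript labelling, per the labels' protocols. Intensity values were deposited per probe set and array; the submitters' processing notes name RMA and Expression Console 1.3.1.187. They span 3 to 17695 in whole numbers and were read as linear signals, since RMA output on the log2 scale does not reach such values, and their log2 was taken. Rounding makes dim values coarse. The genome build behind the probe sets is not given in the sources used here. The number of arrays limits the precision.

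Of 41345 probe sets, 23521 carried 1 symbol in the platform annotation, 1814 several and 16010 none. Gene identifiers of 23328 matched RefSeq (GRCm38.p6), which changed 0 symbols. The probe set with the highest mean stood for a gene, leaving 22180 genes. Means of the 4 groups were estimated from all 12 arrays with limma 3.58.1 in R 4.3.3 (lmFit, eBayes, no block), with Benjamini-Hochberg adjustment over all genes, for 5 comparisons. From each other list, genes were counted over the fit, and up to 4 with the smallest p were named, besides defining markers. Alternatives were a second quantile normalization, median centring, a filter on dim genes, the mean of probe sets, a variance trend, 16 added before the log2, the 6 arrays compared, a replicate block, array weights and leaving out each array. Dropping both arrays that stood apart, the differences from Mlana within arrays and the genes beside Mlana were added after seeing the data. Members and lists were chosen with earlier results of these data known. Same-numbered arrays of different groups deviated together with correlations of -0.15 to 0.11 over 11090 genes, so the numbers were not taken to pair cultures.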

Additional observations from a re-analysis of the deposited data

How the results depend on the processing

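The counts of melanocyte genes past the threshold were 4 in wt and 4 in KO for paraquat over sham. They were 0 in each comparison of KO with wt and in the difference between responses, and these 0 counts held under every alternative run. Fitting the 6 wt arrays alone left 2 in wt (Mlana and Mitf). Leaving out 1 array gave 3 to 5 in wt and 3 to 4 in KO, and dropping both wt sham 2 and KO paraquat 3 gave 5 and 3. Of 1065 recomputed log2 changes of single melanocyte genes, 11 lost and 6 gained their call, 0 of them with a turned direction, and all are given with the gene in the results. A filter keeping genes above the array median in at least 3 arrays left 5 of the 10 (Mlana, Tyrp1, Dct, Pmel and Mitf). The replicate number as a block left 4 and 4 melanocyte genes and 6250, 5805, 2014, 117 and 439 genes of all, against 6480, 6017, 2273, 122 and 508 without it, and changed no call of a melanocyte gene. Of 18 same-numbered pairs of arrays 3 had a correlation over 0.1, and in 16 of 36 cases an array correlated best with its own number.

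Over all genes, KO sham over wt sham gave 2273 calls, 976 in its 6 arrays alone, 1360 without wt sham 2 and KO paraquat 3, and 1418 to 2363 without 1 array. KO paraquat over wt paraquat gave 122, against 222 with the filter, 223 with a variance trend, 231 with 16 added, 249 with array weights, 3 in its 6 arrays alone, 44 without those 2 arrays and 30 to 171 without 1 array. The difference between responses gave 508, against 894, 783 and 882 with the filter, the trend and 16 added, 268 without those 2 arrays and 250 to 700 without 1 array. The cause of these moves was not tested. Whole-number signals under the array median limit what can be seen for Tyr, Slc45a2, Mc1r, Sox10 and Kit.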
